A study of Mus musculus with 4 samples.

Results

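Transcripts of 9 genes of retinoic acid binding, reception and response (Crabp1, Crabp2, Rara, Rarb, Rarg, Cyp26a1, Dhrs3, Stra6 and Stra8) were measured in mouse embryonic stem cell lines labelled UTX knockout or UTX conditional knockout. UTX is an X-linked histone demethylase, encoded by Kdm6a, that removes methyl groups from lysine 27 of histone H3. The members were the probe sets of the Affymetrix Mouse Genome 430 2.0 array that the platform annotation gives to only one gene, that gene being one of the 9. They came to 10 probe sets out of 34945 such probe sets, with a pair for Rarg and 1 for each other gene.

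Each of the 4 arrays held 1 cell line, with 2 UTX knockout lines (KO lines 1 and 2) against 2 UTX conditional knockout lines (cKO lines 1 and 2). All lines were grown on irradiated fibroblast feeders in medium with fetal bovine serum and leukaemia inhibitory factor and then passaged 2 times on gelatin to clear the feeders. The labels list no added retinoic acid. They give neither the strain, nor how the KO lines were made, nor whether a recombinase acted in the cKO lines, and only the cKO lines are called independent. Since nothing names separate cultures, each p-value reflects only how far these 4 samples spread, which may be technical, and 2 lines a group limit the precision of every value.

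Retinoic acid is made from retinol (vitamin A) and acts as a ligand of nuclear receptors. Cells take up retinol with the membrane protein STRA6, oxidise it by way of retinaldehyde, carry retinoic acid on the binding proteins CRABP1 and CRABP2, and degrade it with CYP26 enzymes. The receptors RARα, RARβ and RARγ pair with retinoid X receptors on response elements made of repeated short motifs, and many genes of the pathway are themselves induced by retinoic acid. In embryonic stem cells retinoic acid is widely used to bring about differentiation.

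The response element can be read in the promoters of Rarb and Cyp26a1, which are shown because they carry the receptor's own recognition sequence beside the values below. Each is the window from 250 bases before to 50 bases after the annotated start, 5′ to 3′ on the gene's strand, from RefSeq on build GRCm38.p6, with a direct repeat at spacing 5 in capitals.
Rarb, chr14:16575427-16575726, minus strand: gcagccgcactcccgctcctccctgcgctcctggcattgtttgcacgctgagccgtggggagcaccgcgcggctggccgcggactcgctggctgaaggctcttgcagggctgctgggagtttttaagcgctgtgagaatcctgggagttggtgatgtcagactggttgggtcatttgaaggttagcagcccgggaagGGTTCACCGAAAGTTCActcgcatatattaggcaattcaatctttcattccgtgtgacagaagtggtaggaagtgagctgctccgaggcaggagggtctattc
Cyp26a1, chr19:37697558-37697857, plus strand: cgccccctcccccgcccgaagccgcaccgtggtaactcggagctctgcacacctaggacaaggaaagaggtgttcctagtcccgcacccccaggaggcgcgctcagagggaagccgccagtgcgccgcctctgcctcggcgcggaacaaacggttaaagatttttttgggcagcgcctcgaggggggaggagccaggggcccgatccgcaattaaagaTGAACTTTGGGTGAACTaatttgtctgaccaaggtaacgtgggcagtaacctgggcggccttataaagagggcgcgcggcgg

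The core motifs searched were AGGTCA as well as its variants AGTTCA or GGGTCA or else GGTTCA, on both strands, and as direct repeats at spacings of 1, 2 and 5 bases (DR1, DR2 and DR5). Promoter windows matched 8 of the 9 genes, all but Crabp2, in 17 windows. Rarb held a DR5 repeat, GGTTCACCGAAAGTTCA, from base 53 to base 37 before its start, and Cyp26a1 held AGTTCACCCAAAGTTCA on the opposite strand from base 32 to base 16 before its start. Of 32851 windows of the same length in the table, 0.0974% held a DR5 repeat, 0.268% a DR2 and 0.222% a DR1. Neither DR1 nor DR2 was found in the 17 windows. The window of Stra8 held 2 single core motifs, which 43.7% of all windows hold at least once. A match is a stretch of letters and was not tested as a binding site.

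The arrays were checked first. Kdm6a, the targeted gene, read 265 and 198 in KO lines 1 and 2, against 658 and 415 in cKO lines 1 and 2. Its log2 fold change was -1.17 (SE 0.27; limma, adjusted p = 0.0884), and whether its probe set lies inside the deleted part was not tested. It passed when KO line 1 (-1.38, adjusted p = 0.00985) or cKO line 2 (-1.50, adjusted p = 0.0156) was left out, and averaging its probe sets gave -0.57 (adjusted p = 0.522). Kdm6b, encoding the related demethylase JMJD3, had -0.75 (adjusted p = 0.0877). All 12 embryonic stem cell markers lay above the level set for testing, among them Pou5f1 at 10504 and 10179 in KO lines, against 10354 and 11273 in cKO lines. Of these 12, 8 were positive and the median was 0.16. An unadjusted p under 0.05 was reached by 5, against 13.8% of all genes tested. Both KO values lay above both cKO values for 5 of the 12 and below them for 2, against 21.4% and 21.2% of all genes tested. The 5 included Sox2 (0.37, adjusted p = 0.0994), Zfp42 (0.51, adjusted p = 0.102) and Fgf4 (0.24, adjusted p = 0.583). They also included the pluripotency factors Esrrb (0.94, adjusted p = 0.115) and Klf4 (0.89, adjusted p = 0.13), likewise not called over all 4 arrays. Both passed without cKO line 1 (adjusted p = 0.00533 for Esrrb and 0.00114 for Klf4), Esrrb also without KO line 2 (0.00775) and Klf4 without KO line 1 (0.0479). Among the 12 only Lin28a, an RNA-binding protein, was called (-0.66, adjusted p = 0.0346), a call that ended when cKO line 1 (-0.71, adjusted p = 0.06) or cKO line 2 (-0.62, adjusted p = 0.115) was left out. Averaged over its probe sets, Lin28a was at -0.46 (adjusted p = 0.231) and was not called. Median signals per array ran from 64.9 to 81.6 in KO lines and from 64.4 to 76.6 in cKO lines.

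Crabp2 was the one retinoic acid gene that passed the test, about 3-fold lower in KO lines, while the other binding protein gene, Crabp1, did not pass. The receptor genes did not pass, with Rarg lower and Rara higher on average in KO lines. The genes induced by retinoic acid that could be tested, Cyp26a1 and Stra8, had lower KO averages with wide intervals, and Rarb, Dhrs3 and Stra6 were too dim to test. All fold changes are differences of log2(signal + 4.79), KO minus cKO, which understate the change of dim genes.

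Of the 9 genes 6 lay above the lower 40% of genes by mean log2 value, a level of 77.7, and were tested with limma among 10916 genes. The threshold for a call was 0.05 on the adjusted p. Of the 6 tested genes 1 was called, lower in KO, where 2.2% of all genes tested were called in either direction 1.57% were called lower and 0.632% higher. The median log2 fold change of the 6 was -0.70, with 4 negative and 2 positive, against 0.01 over all genes tested, and these medians are given as a description. Counting every probe set on its own, 7 of the 10 were tested and again the probe set of Crabp2 was called and no other, where 1.22% of 20967 probe sets were called and 0.925% were called lower. Of the 6 genes 2, Crabp2 and Rarg, had groups that did not overlap, both with KO below cKO, where 42.6% of all genes tested did not overlap, 21.2% with KO below and 21.4% with KO above. An unadjusted p under 0.05 was reached by the same 2 genes, against 13.8% of all genes tested.

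**Figure D1:**
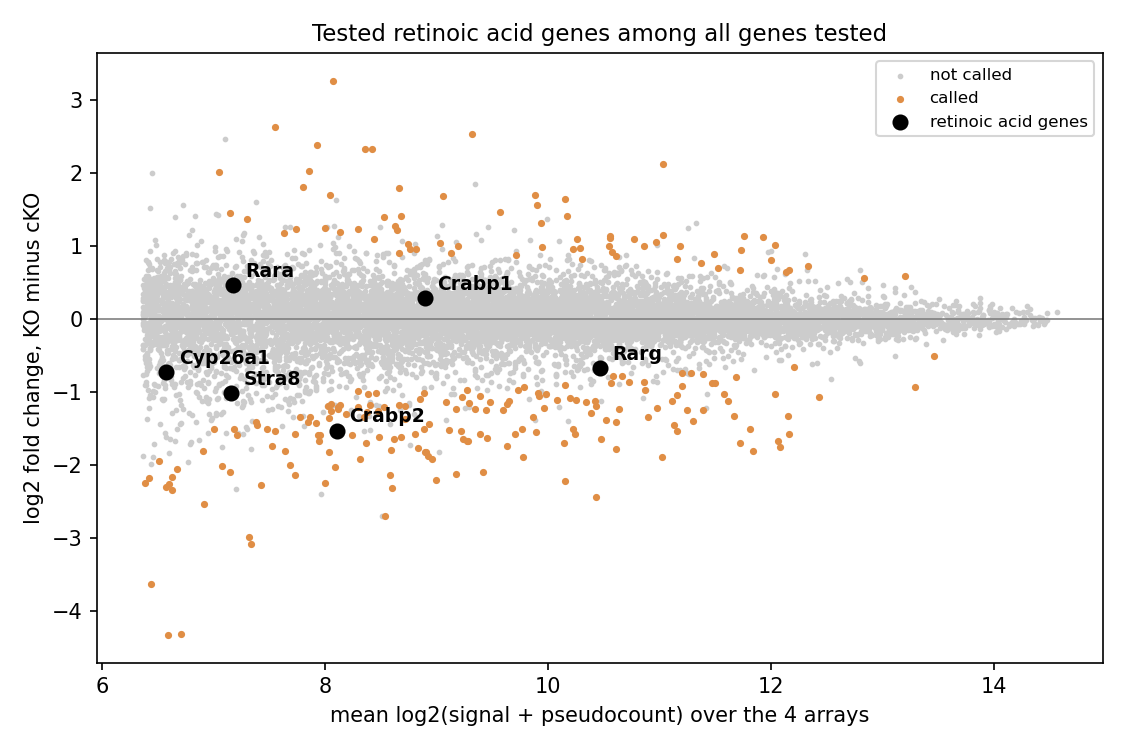
Log2 fold change (KO minus cKO) of each of the 10916 genes tested against its mean log2(signal + 4.79) over the 4 arrays, with called genes in orange and the 6 tested retinoic acid genes in black. Crabp2 lies at -1.53 among called genes, and the other 5 lie among genes that were not called.

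Crabp2 encodes the binding protein that carries retinoic acid to its nuclear receptors. Its probe set, 1451191_at on chromosome 3, read 162 and 152 in KO lines 1 and 2, against 423 and 507 in cKO lines 1 and 2. Both KO values lay below both cKO values, the KO lines differed little from each other, and cKO line 2 was the highest. The averages were 157 ± 7.29 in KO and 465 ± 59.1 in cKO (SD, n = 2 each), a level 2.96-fold lower in KO. The log2 fold change was -1.53 (SE 0.20, 95% interval -2.01 to -1.06; limma, adjusted p = 0.0191). Leaving out 1 array at a time gave values from -1.66 to -1.40, all called, while fitting without a trend of variance on signal gave an adjusted p = 0.0503 and ended the call. In bulk RNA fewer cells of a type and less RNA per cell cannot be told apart.

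Crabp1 encodes the other cellular binding protein, which has been linked to the breakdown of retinoic acid. On chromosome 9, its probe set 1448326_a_at read 567 and 476 in KO lines 1 and 2, against 367 and 496 in cKO lines 1 and 2. The groups overlapped, since cKO line 2 stood above KO line 2. Crabp1 had a log2 fold change of 0.28 (SE 0.21, 95% interval -0.21 to 0.77; limma, adjusted p = 0.657). The difference between the changes of Crabp1 and Crabp2 was not tested.

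**Figure D2:**
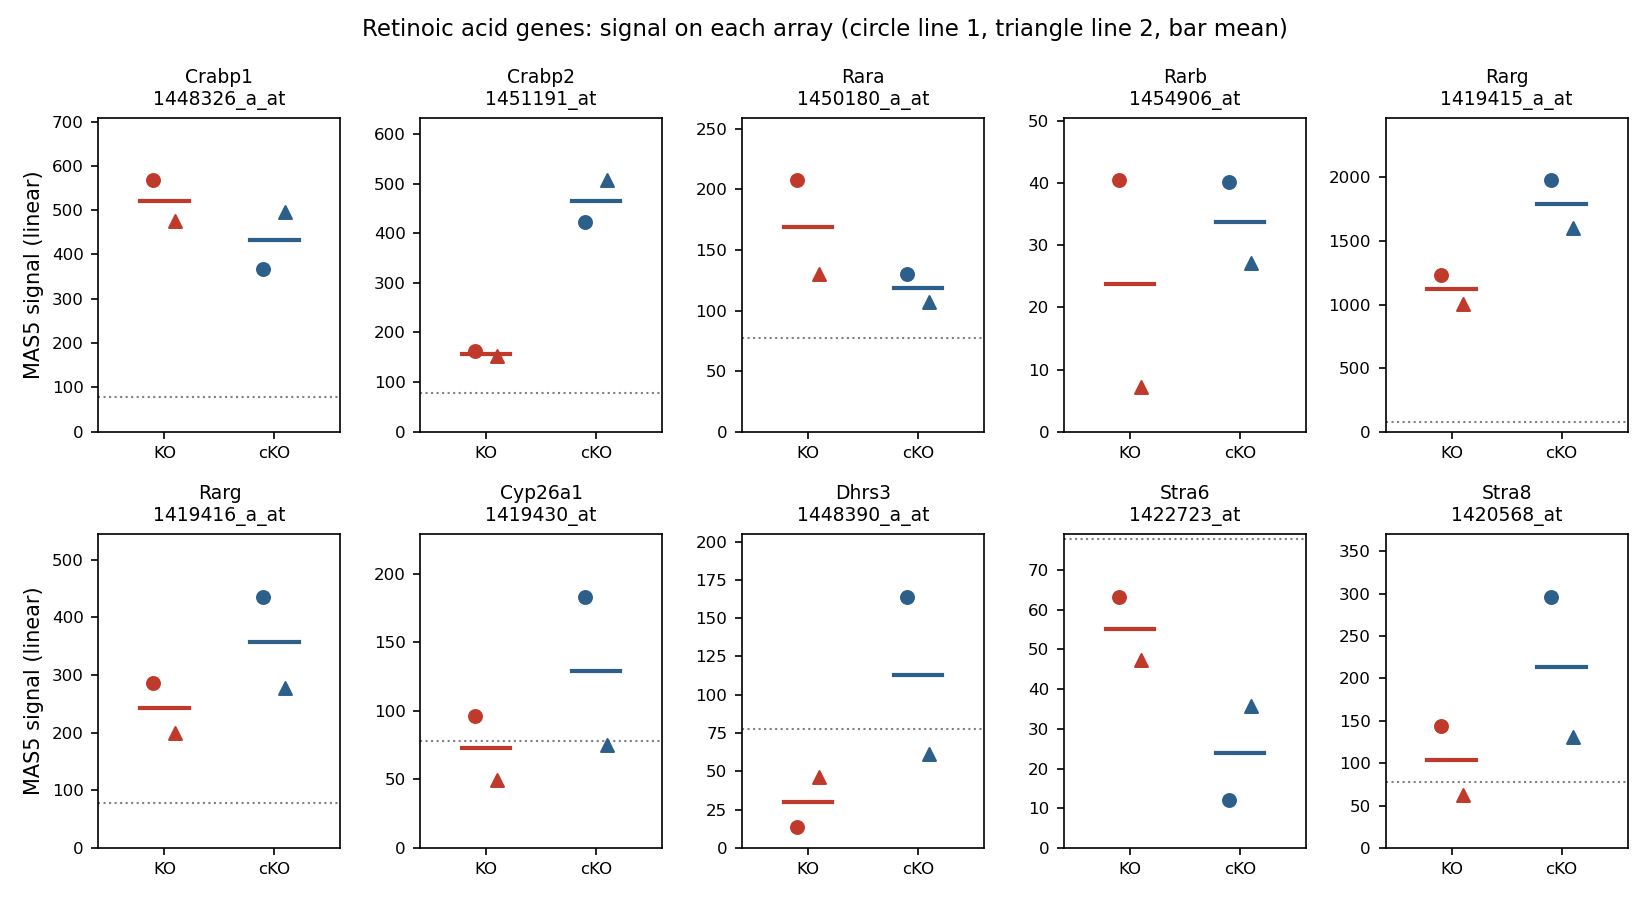
MAS5 signal on a linear scale for each of the 10 probe sets in KO and cKO lines, with line 1 as circles, line 2 as triangles and the mean of each group as a bar. The dotted line, beyond the axis for Rarb, marks 77.7, the level the mean over the 4 arrays (of log values) had to exceed for a gene to be tested. Crabp2, the brighter Rarg probe set and Dhrs3 show KO lines below cKO lines, and Stra6 shows them above. Line 1 lies above line 2 in both groups for Cyp26a1, Stra8, Rara, Rarb and both Rarg probe sets.

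Among the receptors, Rarg (chromosome 15) was the brightest of the members' probe sets on these arrays, a statement about signal and not about transcript number. RARγ is one of the receptors through which embryonic stem cells respond to retinoic acid. Its main probe set, 1419415_a_at, read 1235 and 1004 in KO lines 1 and 2, against 1977 and 1600 in cKO lines 1 and 2. The KO values lay below both cKO values, and in each group line 1 was the higher. Averages were 1120 ± 163 in KO and 1789 ± 267 in cKO (SD, n = 2 each). The log2 fold change of -0.67 (SE 0.18, 95% interval -1.10 to -0.25) had an unadjusted p of 0.00713 in limma and an adjusted p = 0.137, and so missed the threshold. With 1 array left out the values ran from -0.83 to -0.52, and none passed.

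The second Rarg probe set, 1419416_a_at, pointed the same way with overlapping groups. It read 286 and 200 in KO lines 1 and 2, against 436 and 277 in cKO lines 1 and 2, where KO line 1 stood just above cKO line 2. In the fit of probe sets its log2 fold change was -0.53 (SE 0.29, adjusted p = 0.592).

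Rara (chromosome 11) encodes RARα, a receptor found in most tissues. Its probe set, 1450180_a_at, read 208 and 130 in KO lines 1 and 2, against 130 and 107 in cKO lines 1 and 2. KO line 2 and cKO line 1 were the same to 3 digits, so that KO line 1 alone stood apart. The log2 fold change was 0.46 (SE 0.31, 95% interval -0.27 to 1.19; limma, adjusted p = 0.621), and without KO line 1 it was 0.13. Rarb (chromosome 14), the receptor gene with the DR5 repeat shown above, is a well-known target of its own ligand. Its probe set, 1454906_at, read 40.5 and 7.12 in KO lines 1 and 2, against 40.2 and 27.2 in cKO lines 1 and 2. All 4 values lay below the level for testing and the groups overlapped.

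Of the genes that mark a response to retinoic acid, Cyp26a1 encodes the enzyme that clears it and Stra8 a factor that germ cells need to enter meiosis. Cyp26a1 (chromosome 19, probe set 1419430_at) read 96.5 and 49.3 in KO lines 1 and 2, against 183 and 75.5 in cKO lines 1 and 2. Stra8 (chromosome 6, probe set 1420568_at) read 144 and 62.6 in KO lines 1 and 2, against 297 and 131 in cKO lines 1 and 2. In both genes line 1 stood above line 2 within each group, and KO line 1 stood above cKO line 2, so that the groups overlapped.

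The log2 fold change of Cyp26a1 was -0.73 (SE 0.50, 95% interval -1.92 to 0.46; limma, adjusted p = 0.629). It ranged from -1.35 without cKO line 2 to -0.12 without cKO line 1. For Stra8 the log2 fold change was -1.01 (SE 0.50, 95% interval -2.18 to 0.15; adjusted p = 0.446). Without KO line 1 Stra8 passed at -1.59 (adjusted p = 0.0469), and without cKO line 1 it was at -0.44 (adjusted p = 0.856). The KO mean of Cyp26a1, 72.9 ± 33.4, lay under the level for testing, against 129 ± 76.4 in cKO (SD, n = 2 each).

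Germ cell and meiosis genes, listed beside Stra8, had 0 called of 10 tested in limma, 8 of 10 being positive around a median of 0.29. Of the 10, 3 had an unadjusted p under 0.05, against 13.8% of all genes tested. Their extremes were Mael, a piRNA pathway gene, at -1.28 (adjusted p = 0.0994) and Prdm1, a regulator of germ cell specification, at 1.26 (adjusted p = 0.103). Mael passed without KO line 1 (-1.50, adjusted p = 0.023). Prdm1 passed once KO line 2 (1.48, adjusted p = 0.0224) or cKO line 1 (1.65, adjusted p = 0.0118) was left out. Most of these genes thus had the opposite sign to Stra8, a comparison that was not tested.

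Dhrs3 (chromosome 4, probe set 1448390_a_at) encodes a reductase that turns retinaldehyde back to retinol and so limits the making of retinoic acid. It read 13.4 and 46.0 in KO lines 1 and 2, against 164 and 61.4 in cKO lines 1 and 2. The groups did not overlap, but cKO line 1 stood far above the other 3 arrays, which all lay under 77.7. Stra6 (chromosome 9, probe set 1422723_at), the retinol importer, read 63.3 and 47.2 in KO lines 1 and 2, against 12.1 and 35.6 in cKO lines 1 and 2. Here the KO values were the higher, with all 4 values below the level for testing.

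In a fit of all 34945 probe sets without a filter, the change was -1.80 for Dhrs3 (adjusted p = 0.494), 1.19 for Stra6 (adjusted p = 0.65) and -0.71 for Rarb (adjusted p = 0.883). None of the 3 passed. Over the 10 probe sets, groups did not overlap for 4, namely Crabp2, the brighter Rarg, Dhrs3 and Stra6, where 36.6% of all probe sets did not overlap. Both KO values were the lower for 3 of the 10, against 16.8% of all probe sets, and the higher for 1 of the 10, against 19.8%. The share of 4 in 10 is near the 36.6% of all probe sets.

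**Figure D3:**
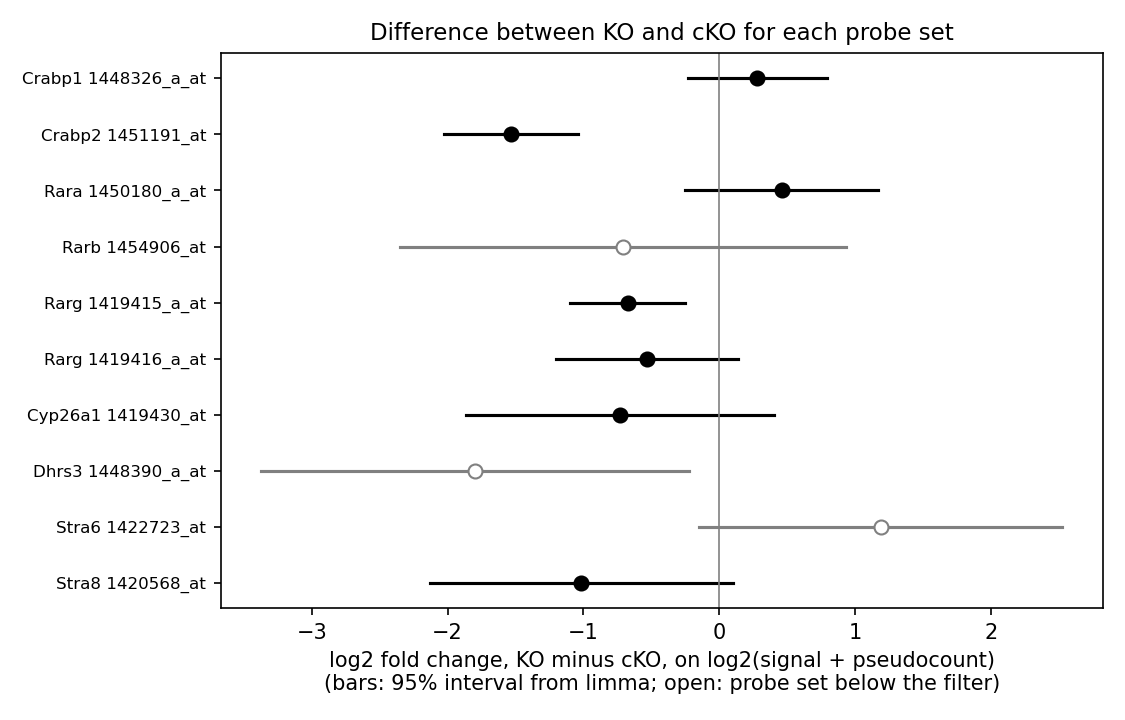
Log2 fold change (KO minus cKO) of each of the 10 probe sets with its 95% interval from limma, filled where the probe set was tested and open where it lay below the filter. Among tested probe sets the intervals of Crabp2 and of the brighter Rarg exclude 0, and that of Crabp2 lies farthest from 0.

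Genes with the pattern most like that of Crabp2 were sought by the Euclidean distance between centred log2 values over the 4 arrays, among 10915 other genes. The nearest 5 were Fndc3c1 (distance 0.146), Epha1 (0.151), Prickle1 (0.172), Psors1c2 (0.172) and Metrnl (0.176). Epha1 encodes an ephrin receptor, Prickle1 a planar cell polarity protein and Metrnl a secreted protein. Fndc3c1 read 351 and 333 in KO lines 1 and 2, against 1018 and 1197 in cKO lines 1 and 2. All 5 were called, with log2 fold changes from -1.69 to -1.41. They were chosen for likeness to Crabp2 on the same 4 arrays, so these changes and calls follow largely from the choice. The likeness is a description. The call of Metrnl ended when cKO line 1 (-1.47, adjusted p = 0.0836) or cKO line 2 (-1.34, adjusted p = 0.139) was left out. When all probe sets of a gene were averaged, Epha1 (-0.89, adjusted p = 0.282) and Prickle1 (-0.36, adjusted p = 0.787) were no longer called.

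The wider pathway was read from 3 lists. Genes of retinoid uptake, supply and breakdown had 0 called of 13 tested in limma. Of the 13, 3 had an unadjusted p under 0.05, against 13.8% of all genes tested. Another 16 of the 32 listed were below the filter, among them Aldh1a2 and Aldh1a3, which encode enzymes that make retinoic acid, and Cyp26b1, a relative of Cyp26a1. The median log2 fold change was 0.13, with 7 positive and 6 negative. Rdh10, whose enzyme oxidises retinol to retinaldehyde, read 328 and 228 in KO lines 1 and 2, against 699 and 422 in cKO lines 1 and 2. Its groups did not overlap, and its log2 fold change was -0.98 (SE 0.29, adjusted p = 0.178). Rdh10 passed when KO line 1 (-1.23, adjusted p = 0.0215) or cKO line 2 (-1.34, adjusted p = 0.0296) was left out and with each array centred on its median (-1.03, adjusted p = 0.0323). Cyp2s1, a cytochrome P450 that can act on retinoic acid, had -0.73 (SE 0.21, adjusted p = 0.168).

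Receptor partners, coregulators and competing nuclear receptors had 0 called of 23 tested in limma, with a median of -0.03. Of the 23, 3 had an unadjusted p under 0.05, against 13.8% of all genes tested. The retinoid X receptor genes Rxra (-0.31), Rxrb (-0.03) and Rxrg (-0.28) did not pass, with adjusted p from 0.741 to 0.967. The value nearest to the threshold was that of Nr6a1, the germ cell nuclear factor, which represses Pou5f1 when stem cells are treated with retinoic acid. Nr6a1 read 1672 and 1916 in KO lines 1 and 2, against 3061 and 2790 in cKO lines 1 and 2. Its groups did not overlap, and the log2 fold change was -0.71 (SE 0.14, adjusted p = 0.0619). Nr6a1 passed without KO line 2 (-0.80, adjusted p = 0.0466). Averaged over its probe sets it was at -0.03 (adjusted p = 0.981). Nrip1, a corepressor that retinoic acid induces, had -0.54 (adjusted p = 0.349).

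Of other genes induced by retinoic acid 12 of 39 listed were tested, and 2 of them fell while none rose, where 2.2% of all genes tested were called. An unadjusted p under 0.05 in limma was reached by 7 of the 12, against 13.8% of all genes tested. The median of the 12 was -0.37, with 8 negative, against 0.01 over all genes tested. The members that fell were the basement membrane genes Col4a1 (log2 fold change -1.15, SE 0.21) and Lamb1 (-0.87, SE 0.16), both with an adjusted p = 0.0483. Col4a1 read 848 and 892 in KO lines 1 and 2, against 2373 and 1568 in cKO lines 1 and 2. Lamb1 read 1140 and 1371 in KO lines 1 and 2, against 2452 and 2132 in cKO lines 1 and 2. Without cKO line 1 neither was called (-0.85, adjusted p = 0.0911 for Col4a1, and -0.77, adjusted p = 0.128 for Lamb1), and Lamb1 also missed without KO line 1 (-0.74, adjusted p = 0.0823). After quantile normalization neither was called (adjusted p = 0.0529 and 0.0505). Neither was called when all probe sets of a gene were averaged (-0.95, adjusted p = 0.15 for Col4a1, and -0.75, adjusted p = 0.197 for Lamb1). Among the 12 tested genes the change farthest from 0 was positive, that of Meis1, a homeobox gene, at 1.40 (SE 0.40, adjusted p = 0.161). Meis1 read 110 and 228 in KO lines 1 and 2, against 57.6 and 56.6 in cKO lines 1 and 2. It passed without KO line 1 (1.91, adjusted p = 0.0144). Skap2 had 0.56 (SE 0.13, adjusted p = 0.102), also with both KO values above both cKO values. The early Hox genes of this list with a probe set, such as Hoxb1, lay below the filter, apart from Hoxa5 (0.08, adjusted p = 0.956).

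**Figure D4:**
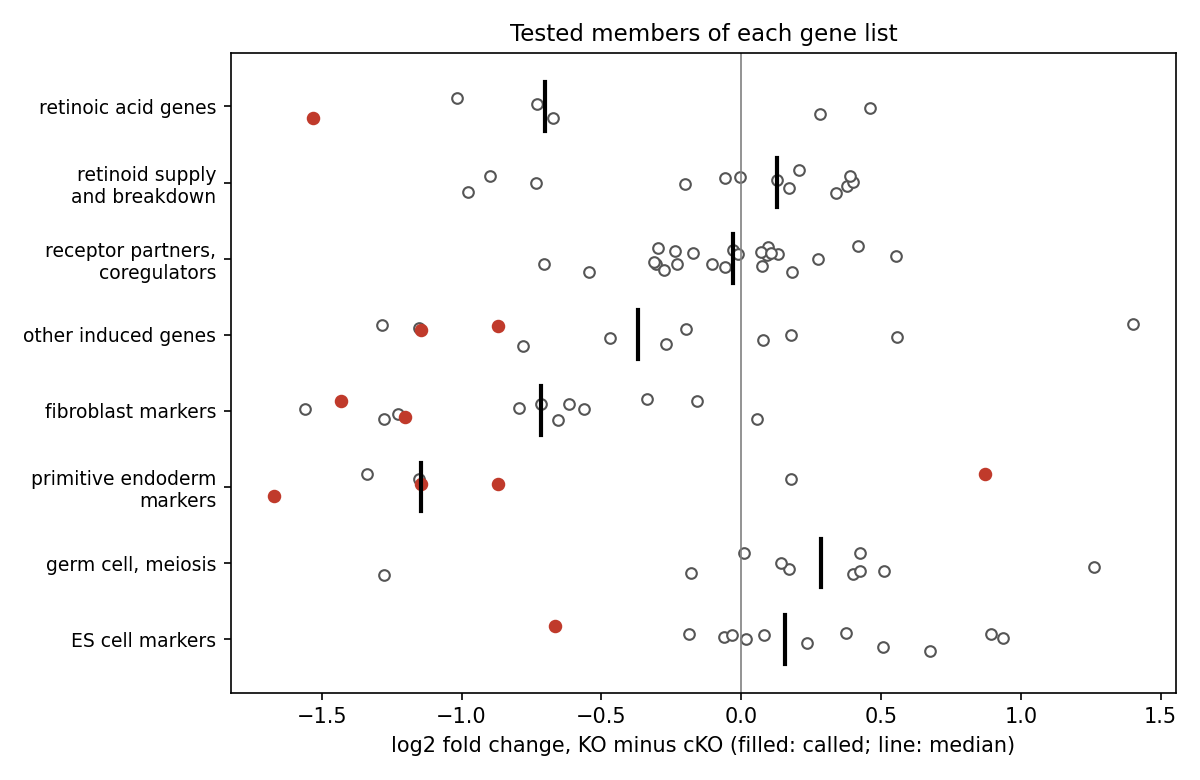
Log2 fold change (KO minus cKO) of each tested gene by list, filled where called, with the median as a vertical line. The 6 tested retinoic acid genes have a median of -0.70 and 1 called gene, the lists of supply genes and of receptor partners centre near 0 with no call, and fibroblast and primitive endoderm markers lie mostly below 0.

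Markers of other cell types were read in the same comparison, where 2.2% of all genes tested were called in either direction. Of 13 tested fibroblast markers, which would mark feeder cells, 2 fell and 12 were negative, around a median of -0.72. Both KO values lay below both cKO values for 10 of the 13, where 21.2% of all genes did. An unadjusted p under 0.05 in limma was reached by 9 of the 13, against 13.8% of all genes tested. The signals summed over 19 markers were 10488 and 9859 in KO lines 1 and 2, against 13038 and 10799 in cKO lines 1 and 2. Much of each sum was Fn1, which was bright on every array and not called (0.06, adjusted p = 0.89). Fn1 read 8014 and 7274 in KO lines 1 and 2, against 7601 and 7100 in cKO lines 1 and 2. The sums therefore say little of the other markers. No marker was listed at 0, and 6 of the 19, among them Lum, Pdgfra, Prrx1 and Twist1, lay below the filter. The members that fell were Col5a1 (-1.43, adjusted p = 0.0295) and Thy1 (-1.20, adjusted p = 0.0483). Col5a1 missed without cKO line 1 (-1.22, adjusted p = 0.0938), and Thy1 missed when KO line 2 was left out (-1.03, adjusted p = 0.0574), as it did when cKO line 2 was (-1.04, adjusted p = 0.163).

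Between the cKO lines, 12 of the 13 tested fibroblast markers were higher in line 1 and 1, Thy1, was higher in line 2. Col1a1 read 146 and 171 in KO lines 1 and 2, against 618 and 246 in cKO lines 1 and 2. Thy1 read 202 and 157 in KO lines 1 and 2, against 372 and 466 in cKO lines 1 and 2, the order that Crabp2 also had. Without cKO line 1 Crabp2 was at -1.66 (adjusted p = 0.0118) and Thy1 at -1.36 (adjusted p = 0.039), both called. Cyp26a1, Stra8, Dhrs3, Rara, Rarb and Rarg were higher in cKO line 1, and how many of all genes were was not counted. In KO lines Cyp26a1 and Stra8 were again higher in line 1, and Dhrs3 was higher in line 2. Of the 13 markers Col1a1, Col1a2, Col5a2 and S100a4 were higher in KO line 2, and the others in KO line 1. Crabp1 and Stra6, like Crabp2, were higher in cKO line 2. All 12 tested other induced genes and all 7 tested primitive endoderm markers were also higher in cKO line 1. Embryonic stem cell markers were split, with 6 higher in each line. The median signal was 76.6 in cKO line 1, against 64.4 in cKO line 2. The part of feeder cells in the values of Crabp2, Cyp26a1, Stra8 and Dhrs3 was not tested.

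Primitive endoderm is a lineage that stem cells can form in response to retinoic acid. Of 7 tested markers of it, 3 fell, 1 rose and 3 were not called, around a median of -1.15. An unadjusted p under 0.05 in limma was reached by 6 of the 7, against 13.8% of all genes tested. Below the filter lay 8 of the 15 listed, including the regulators Gata4, Gata6 and Sox17. Sparc fell with a log2 fold change of -1.67 (adjusted p = 0.00441), as did Col4a1 and Lamb1, which are on this list too. Lama1 rose (0.87, adjusted p = 0.043), a call that ended without KO line 2 (0.78, adjusted p = 0.104), cKO line 1 (0.89, adjusted p = 0.0791) or cKO line 2 (0.85, adjusted p = 0.105). Summed over the 15 markers the signals were 8329 and 8392 in KO lines, against 14725 and 16922 in cKO lines, and none was listed at 0. Much of the difference between these sums was Sparc, which read 2313 and 2478 in KO lines 1 and 2, against 7756 and 7523 in cKO lines 1 and 2. Of 5 tested neural markers 1 fell, Nes (-1.82, adjusted p = 0.0325), the gene for nestin, which was at -0.78 (adjusted p = 0.443) when its probe sets were averaged. Map2, for a microtubule-associated protein of neurons, went the other way at 1.18 (adjusted p = 0.0665), with 248 and 211 in KO lines 1 and 2, against 97.9 and 98.5 in cKO lines 1 and 2. It was not called. How far cells of these kinds account for the values of Crabp2 was not tested.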

How the data were processed

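RNA of each of the 4 cell lines was hybridised to its own array. The authors deposited linear intensity values, which are MAS5 signals according to the submitters' processing notes, with no version given. Detection calls were not used here. The mean after trimming 2% from each end was 500 on each array, so the arrays came scaled to a common mean.

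Of 45101 probe sets, 34945 named 1 gene in the platform annotation, and 34741 of these took a current symbol from RefSeq by Entrez identifier. Each of 18193 genes was represented by its brightest probe set by mean log2(signal + 4.79), 4.79 being the 10th percentile of all values. KO was compared with cKO in limma 3.58.1 (R 4.3.3; lmFit, eBayes with trend, Benjamini-Hochberg over all genes tested). The fit draws each gene's variance toward that of genes of like signal (5.13 prior against 2 residual degrees of freedom). Plots used Python 3.11.15 with matplotlib 3.10.9.

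The members and lists were chosen with earlier results of these data known. Genes named were the members, Kdm6a, Kdm6b, up to 4 called genes of each list or, with none called, the 2 of smallest p, and the 5 genes nearest to Crabp2. Aldh1a2, Aldh1a3, Cyp26b1, Hoxb1, Hoxa5, the retinoid X receptors, Meis1, Skap2, Map2, Pou5f1, Esrrb, Klf4, Col1a1 and dim markers were named after their values were seen. So were Sox2, Zfp42, Fgf4, Fn1, Col1a2, Col5a2 and S100a4. On 20 simulated data sets of 10916 genes with 200 changed for KO against cKO, the fit called 76.2% of 2-fold and 98% of 4-fold changes, and 5.18% of calls were unchanged genes. The simulated errors were independent between arrays, with a variance that followed signal as the fit assumes. In the real data deviations of same-numbered lines correlated at 0.52, so these rates may not hold for these arrays. Alternatives changed the pseudocount, filter, normalization, variance model, threshold, choice of probe sets and arrays included, and added the line number as a block.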

Additional observations from a re-analysis of the deposited data

How the results depend on the processing

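Over the 6 tested retinoic acid genes, 74 alternative values were computed and none changed sign. Of these, 70 stayed on the same side of the threshold. Crabp2 ran from -1.66 to -1.40 and missed only in the fit without the variance trend (adjusted p = 0.0503). With the lower 60% left out Crabp2 itself was not tested, so 0 of 2 tested genes were called, and without the trend 0 were. Leaving out 1 array gave 1 to 2 called genes of the 6 and always 1 called probe set. Of single probe sets, 0 were called without a filter (Crabp2, adjusted p = 0.0523) and 0 without the trend.

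The labels do not pair lines of the same number. Deviations of same-numbered lines correlated at 0.52 across genes, and with the line number as a replicate block 3 of the genes and 3 of the probe sets were called, namely Crabp2, Rarg (-0.67, adjusted p = 0.00995) and Stra8 (-1.01, adjusted p = 0.0312). Between lines of the same number Stra8 differed by -1.02 for number 1 and -1.01 for number 2, and Rarg by -0.68 and -0.67. The block also called Kdm6a (adjusted p = 0.00811), Kdm6b (0.024), Mael (0.0395) and Prdm1 (0.00967). In the lists it called 2 supply genes, Rdh10 (0.0113) and Cyp2s1 (0.0491), 2 receptor partners, Nr6a1 (0.0127) and Nr5a2, and 7 other induced genes, 5 lower and 2 higher, the higher being Meis1 (0.0455) and Skap2 (0.0138). It called 5 fibroblast and 6 primitive endoderm markers, and of other genes named Map2 (0.0195), Esrrb (0.0028) and Klf4 (0.0293).

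Over all genes, 240 were called, against 147 without a filter, 154 with the lower 60% left out, 28 without the trend, 1048 with the block, 428 at a threshold of 0.1, 129 with the mean of probe sets and 228 to 432 with 1 array left out, the highest without KO line 1. Over all probe sets, 255 were called, against 125 without a filter, 1 without the trend, 1682 with the block, 462 at 0.1 and 251 to 392 with 1 array left out, the highest without cKO line 1. Alternatives for the other 26 named genes were added after the data were seen; of 325 values none changed sign, 44 lost and 30 gained a call. Centring each array on its median gave calls to Kdm6a (adjusted p = 0.00914), Mael (0.0208), Prdm1 (0.0138) and Map2 (0.0316) as well as Rdh10, and ended those of Lin28a (0.308), Lamb1 (0.107) and Lama1 (0.135). The causes were not tested. Without detection calls, how far signals under 77.7 stand above background is unknown, which limits Rarb, Dhrs3, Stra6 and the KO level of Cyp26a1.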
